A study of Mus musculus with 36 samples.

Results

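The genes followed here were 10 members of the piRNA pathway, *Piwil2*, *Piwil4*, *Tdrd1*, *Tdrd5*, *Tdrd9*, *Mael*, *Mov10l1*, *Asz1*, *Gtsf1* and *Pld6*. They were chosen by name for their known roles in the pathway, with earlier results of these data known. The choice was out of 56893 gene symbols in the tables of primordial germ cells (PGCs) and 55492 in those of gonads, and each gene was found once in both. RNA-seq covered 36 libraries in 12 groups of 3. Wild-type control and intrauterine hyperglycemia (IUHG) groups were given for E13.5 female gonads, E12.5 PGCs of undetermined sex, and female and male PGCs at E13.5 (E13.5F, E13.5M) and E16.5 (E16.5F, E16.5M). IUHG dams received 120 mg/kg streptozotocin (STZ), which is toxic to insulin-producing cells, on day 3.5 of pregnancy, and were included when blood glucose was above 14 mM on day 6.5. The groups therefore differed in the drug as well as in glucose, and these cannot be told apart in the libraries analysed here. Each gonad library pooled several pairs of gonads of ICR mice, and PGCs were sorted by the green fluorescence of an *Oct4-EGFP* transgene carried by both control and IUHG fetuses.

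piRNAs are small RNAs of the germ line that guide PIWI proteins to transposon transcripts. Long precursors are brought to mitochondria, cut there and loaded onto PIWI proteins in granules that are held together by Tudor domain proteins, and transposon RNA cut by one PIWI protein feeds the making of further piRNAs. In the mouse, fetal male germ cells use the pathway to direct new DNA methylation to transposons after the germ line has been cleared of methylation, and many pathway genes are also transcribed in female germ cells around meiotic entry.

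RefSeq promoters (GRCm38.p6) from 250 bases before to 50 bases after a transcription start were found for 9 of the 10 genes, all but *Piwil2*. Where a gene had several starts, the one nearest to the gene start listed in the gonad tables was taken. The start used lay 0 to 85 bases from that gene start, but 316 bases from it for *Tdrd5*. The promoters held 10 to 48 CpG dinucleotides in 300 bases (median 18), against a median of 7 in the 32851 promoters of the table. The palindrome CACGTG (E-box) was in 5 of the 9, those of *Tdrd1*, *Tdrd9*, *Mael*, *Mov10l1* and *Pld6*, and in 7.15% of all promoters. The letters GCGCANGCG of the NRF1 site, searched on both strands and added after the sequences were read, were in 6 of the 9, those of *Piwil4*, *Tdrd1*, *Tdrd5*, *Mov10l1*, *Asz1* and *Pld6*, and in 6.25% of all promoters. CCAAT on either strand was in 4 of the 9 and in 37.4% of all, and GCGGGAA (E2F6 site) in 1 of the 9, that of *Tdrd5*, and in 4.60% of all. All of these motifs but CCAAT contain CpG, and all 9 promoters hold more CpG than the median promoter. The shares over all promoters are not matched for CpG, and no matched share was computed. No match of one motif overlapped a match of another in the promoters shown. Binding at these letters was not measured in the libraries analysed here. The 6 genes that passed the test in at least 1 comparison of IUHG with control are shown from 5′ to 3′ on the coding strand, with all matches of the 4 motifs in capitals.
Piwil4, chr9:14740623-14740922, minus strand: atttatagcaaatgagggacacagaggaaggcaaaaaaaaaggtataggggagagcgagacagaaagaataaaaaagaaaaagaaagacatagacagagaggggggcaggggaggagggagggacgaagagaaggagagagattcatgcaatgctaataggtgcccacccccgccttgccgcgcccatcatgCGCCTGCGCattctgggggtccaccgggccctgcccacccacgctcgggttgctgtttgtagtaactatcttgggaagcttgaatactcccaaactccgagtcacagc
Tdrd1, chr19:56825959-56826258, plus strand: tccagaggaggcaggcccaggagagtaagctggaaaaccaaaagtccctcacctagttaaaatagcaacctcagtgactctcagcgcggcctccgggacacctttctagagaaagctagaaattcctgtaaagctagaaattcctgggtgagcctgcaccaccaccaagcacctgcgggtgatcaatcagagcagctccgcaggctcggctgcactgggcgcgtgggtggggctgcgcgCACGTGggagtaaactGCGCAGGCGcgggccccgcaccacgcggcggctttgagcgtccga
Tdrd5, chr1:156303299-156303598, minus strand: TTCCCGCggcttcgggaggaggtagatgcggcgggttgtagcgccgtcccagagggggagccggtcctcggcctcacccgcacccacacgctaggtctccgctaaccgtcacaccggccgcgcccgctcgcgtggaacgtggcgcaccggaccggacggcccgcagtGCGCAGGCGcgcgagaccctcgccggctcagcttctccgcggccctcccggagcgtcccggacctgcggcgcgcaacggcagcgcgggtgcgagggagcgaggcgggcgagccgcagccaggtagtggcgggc
Tdrd9, chr12:111971309-111971608, plus strand: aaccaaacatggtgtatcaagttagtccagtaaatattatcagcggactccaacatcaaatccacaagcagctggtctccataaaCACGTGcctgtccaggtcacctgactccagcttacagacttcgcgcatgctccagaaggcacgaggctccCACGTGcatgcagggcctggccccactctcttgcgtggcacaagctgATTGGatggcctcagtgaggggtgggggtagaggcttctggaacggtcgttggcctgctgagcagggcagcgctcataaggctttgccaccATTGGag
Mael, chr1:166238695-166238994, minus strand: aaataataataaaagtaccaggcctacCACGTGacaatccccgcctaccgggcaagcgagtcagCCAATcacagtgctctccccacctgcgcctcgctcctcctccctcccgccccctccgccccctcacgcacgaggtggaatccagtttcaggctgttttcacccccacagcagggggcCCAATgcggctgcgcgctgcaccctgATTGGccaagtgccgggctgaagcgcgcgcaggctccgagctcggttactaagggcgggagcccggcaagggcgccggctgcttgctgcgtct
Gtsf1, chr15:103430378-103430677, minus strand: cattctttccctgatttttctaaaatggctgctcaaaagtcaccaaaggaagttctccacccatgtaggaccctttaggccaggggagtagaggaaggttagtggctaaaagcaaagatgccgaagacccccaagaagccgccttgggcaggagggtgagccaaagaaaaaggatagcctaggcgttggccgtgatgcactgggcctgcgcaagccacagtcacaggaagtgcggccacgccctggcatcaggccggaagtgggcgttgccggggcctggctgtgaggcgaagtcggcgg
The capitals of *Tdrd1* are an E-box that begins 11 bases before the start and an NRF1 match that begins 5 bases after it, and those of *Tdrd9* are 2 E-boxes and 2 CCAAT boxes. *Mael* held 1 E-box and 3 CCAAT boxes, *Piwil4* an NRF1 match 58 bases before the start, and *Tdrd5* an NRF1 match 83 bases before the start and the E2F6 letters at the far end. None of the 4 motifs was in the *Gtsf1* window. Of the genes not shown, *Piwil2* lies at chr14:70609926-70666543, *Mov10l1* at chr15:88867112-88939355, *Asz1* at chr6:18050963-18109056 and *Pld6* at chr11:59675529-59678468 in the annotation of the PGC tables (mm39). *Piwil2* overlaps a small gene, *Gm24890*, on the same strand, and reads there may be split between them.

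Levels are given in TPM, transcript levels scaled for gene length and library total, in the order of replicates 1, 2 and 3. Changes are differences of log2(TPM + 1) ± SE, a scale that understates changes of genes near 1 TPM such as *Tdrd9* before E16.5. A gene was called when the adjusted p of limma was under 0.01 and the log2 change was over 1 in size (under 0.05 and at least 1 in gonads), and interactions were called on the adjusted p alone. Aligned bases ranged from 3.25 to 8.32 gigabases in PGC and from 3.89 to 4.95 gigabases in gonad libraries. The labels call the 3 libraries of a group biological replicates without naming litters, so p-values measure the spread between these libraries. An exact permutation test of 3 against 3 libraries cannot give a two-sided p below 0.1, so single genes were tested only in the fit across all genes. All 6 pan-germ markers were above a mean of 1 TPM in all 12 groups, and their sum was 7663 to 8319.8 TPM in E12.5 control PGCs and 461 to 552 TPM in control gonads.

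Several libraries stood apart or went against their labels. In E13.5F IUHG PGCs, replicates 1 and 2 correlated at 0.98 across genes, but at 0.92 and 0.93 with replicate 3, and the E13.5F changes that rest on replicate 3 are given with and without it. E12.5 PGCs carried Y-linked transcripts, with a sum over 4 genes of 194 to 212 TPM in control and 129.6 to 154 TPM in IUHG libraries, against 151 to 183 TPM in E13.5M control PGCs and at most 0.0187 TPM in E13.5F control PGCs. The part of this sex makeup in the comparisons with E12.5 was not tested. Gonad control replicate 1 carried Y-linked transcripts at 51.3 TPM and the 6 Sertoli markers at 389.9 TPM, against 0 and at most 32.4 TPM in the other 2 control replicates. The lowest correlation between replicates of a group was 0.90, between E16.5F IUHG replicates 1 and 2. Within each group no more than 0.415% of values were the same between 2 libraries.

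**Figure D1:**
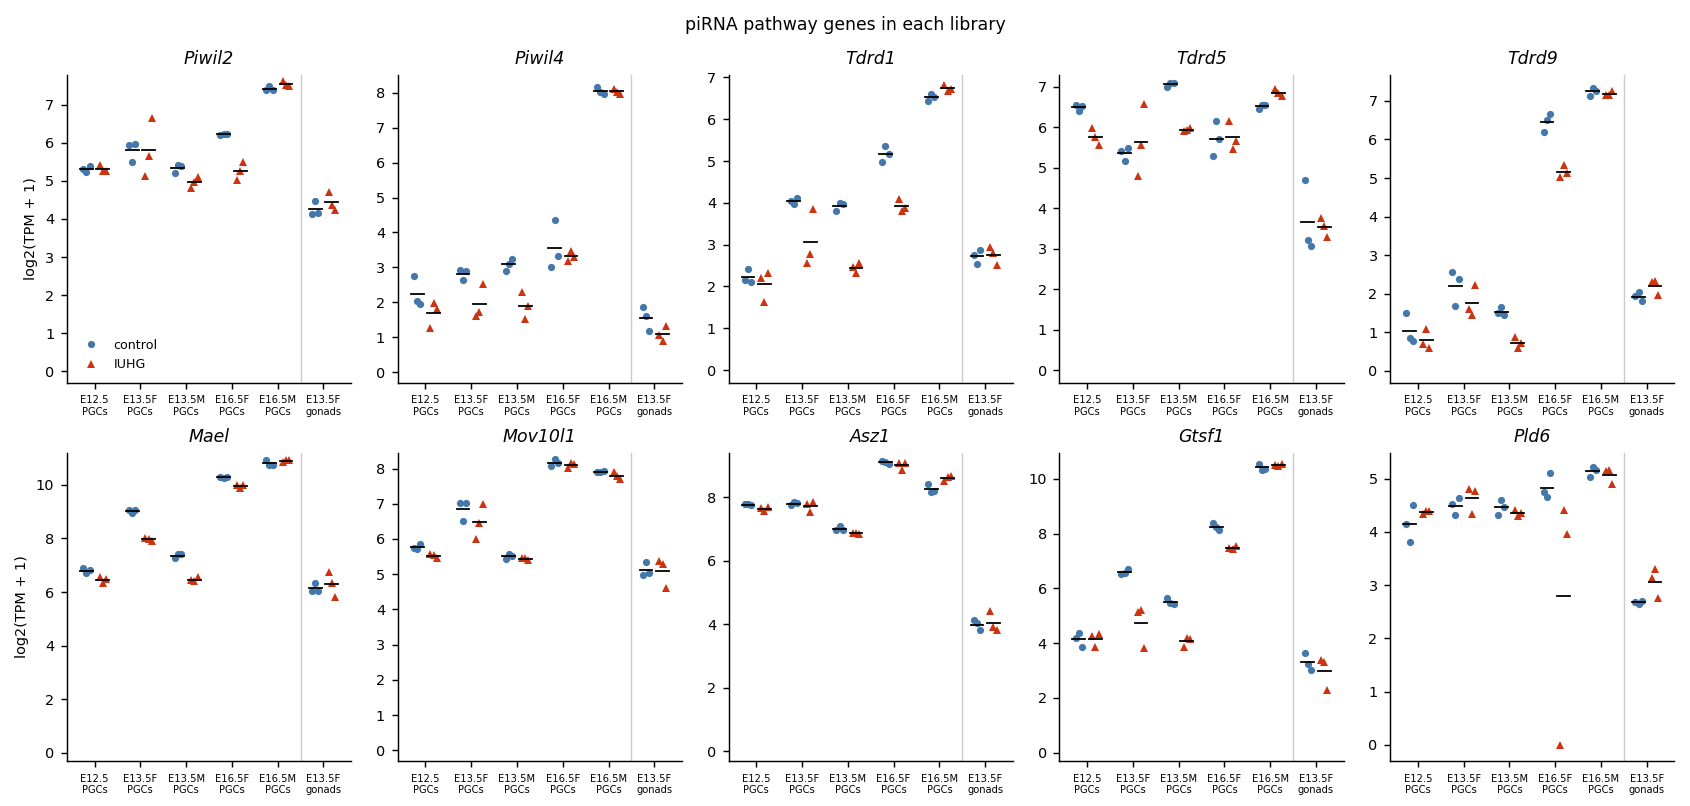
Levels of the 10 genes in all 36 libraries as log2(TPM + 1), by stage (blue circles for control, red triangles for IUHG, a black bar for the mean of 3), with gonads to the right of the grey line. The red triangles lie below the blue circles for 8 genes at E13.5M and overlap or exceed them for most genes at E16.5M.

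In control PGCs most of the 10 genes rose toward E16.5 in both sexes. Of the 10 genes, 8 rose from E13.5M to E16.5M, where 38.3% of all tested genes rose, with a median log2 change of 2.50 against 0.62 over all genes. From E13.5F to E16.5F, 6 rose against 18.4% of all genes (median 1.18 against 0.31). From E12.5 to E13.5F, 5 rose against 18.6% and 1, *Tdrd5*, fell against 6.9%, and from E12.5 to E13.5M 2 rose against 8.97%. These comparisons share the E12.5 or E13.5 control libraries. *Mael* is in 2 gene lists that the study drew up from these PGC libraries and *Tdrd9* in 1, so their changes here and with IUHG are not independent of that choice. The study also names *Tdrd1*, by its own test and thresholds, among the genes lower with IUHG in these E13.5F PGC libraries. With median-of-ratios scaling, which moved the median over all genes to between 0.02 and 0.36 in these 4 comparisons, the calls of *Tdrd9* and *Mov10l1* from E12.5 to E13.5F, of *Tdrd1* and *Mael* from E13.5F to E16.5F and of *Asz1* from E13.5M to E16.5M were lost, with no change of direction. Leaving out E13.5F control replicate 1 or 3 also ended the calls of *Tdrd9* and *Mov10l1* from E12.5 to E13.5F, so that 3 genes rose.

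Control levels are given below as the mean ± SD of 3 libraries at E12.5, E13.5F, E13.5M, E16.5F and E16.5M, in that order. *Piwil2* encodes MILI, the PIWI protein that binds the first piRNAs of the fetal germ line, and stood at 38.7 ± 2.47, 55.5 ± 9.68, 39.5 ± 2.96, 73.6 ± 0.871 and 170.1 ± 7.10 TPM. *Piwil4* encodes MIWI2, the nuclear PIWI protein of fetal male germ cells, and stood at 3.88 ± 1.57, 6.09 ± 0.703, 7.53 ± 1.02, 11.9 ± 6.79 and 265 ± 18.4 TPM. *Piwil4* was thus low in all groups but the last, where it rose by 4.97 ± 0.10 on the log2 scale from E13.5M (limma, adjusted p = 7.75e-09), and in E16.5F its replicate 2 lay at 19.7 TPM and the others below 10 TPM. *Piwil2* rose by 2.08 ± 0.07 over the same interval (adjusted p = 5.80e-08), and from E12.5 to E13.5M it moved by 0.03 ± 0.09 (adjusted p = 0.821).

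Among the Tudor domain genes, *Tdrd1*, the scaffold that binds MILI, stood at 3.69 ± 0.532, 15.5 ± 0.904, 14.2 ± 1.08, 35.1 ± 4.67 and 90.9 ± 5.46 TPM. *Tdrd5*, needed for the germ granules of male germ cells, stood at 89.1 ± 5.22, 40.2 ± 4.79, 132 ± 5.24, 53.1 ± 15.8 and 90.4 ± 3.12 TPM. *Tdrd9*, a helicase that works with MIWI2, stood at 1.12 ± 0.616, 3.78 ± 1.43, 1.92 ± 0.237, 87.5 ± 14.2 and 151 ± 11.0 TPM. *Tdrd1* rose at every step in both sexes, from E13.5F to E16.5F by 1.12 ± 0.16 (adjusted p = 3.41e-04). *Tdrd9* stayed under 5 TPM until E13.5 and rose by 4.25 ± 0.25 in females and 5.70 ± 0.10 in males by E16.5 (adjusted p = 1.26e-06 and 4.28e-09). *Tdrd5* followed another course, being highest at E13.5M and moving by -0.54 ± 0.06 from there to E16.5M, a change that passed the p but not the size (adjusted p = 4.07e-05).

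Of the factors that make and use piRNAs, *Mov10l1*, the helicase that feeds precursors into the pathway, stood at 54.0 ± 3.05, 116 ± 22.4, 44.4 ± 2.09, 287 ± 18.6 and 240.4 ± 0.400 TPM. *Mael*, a nuage protein needed to silence transposons, stood at 111 ± 8.10, 523 ± 27.5, 164 ± 10.3, 1242 ± 27.4 and 1787 ± 124 TPM. *Gtsf1*, a zinc finger protein that assists PIWI proteins in cutting their targets, stood at 16.9 ± 3.15, 96.8 ± 6.27, 45.0 ± 3.19, 306 ± 29.9 and 1372 ± 102 TPM. *Gtsf1* and *Mael* were the most abundant of the 10 at E16.5M. *Asz1*, a scaffold on the outer mitochondrial membrane, was above 200 TPM at E12.5 and stood at 217 ± 2.57, 223 ± 8.31, 128 ± 7.92, 549 ± 16.0 and 307 ± 30.0 TPM, while *Pld6*, the nuclease of that membrane thought to cut precursors, stood at 17.1 ± 4.32, 21.6 ± 2.52, 21.0 ± 2.12, 27.7 ± 4.93 and 34.3 ± 2.33 TPM and was not called in any control comparison.

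Control PGCs of the sexes differed at both stages. At E13.5, *Tdrd5* was higher in males, by 1.70 ± 0.10 on the log2 scale, as were 9.35% of all genes. *Mael*, *Mov10l1* and *Gtsf1* were higher in females (-1.67 ± 0.08, -1.34 ± 0.14 and -1.09 ± 0.09, male minus female), as were 20.4% of all genes, and these 4 had adjusted p from 3.33e-07 to 3.49e-05. At E16.5, *Piwil2*, *Piwil4*, *Tdrd1* and *Gtsf1* were higher in males, by 1.20 ± 0.07, 4.49 ± 0.31, 1.36 ± 0.12 and 2.16 ± 0.09 (adjusted p from 6.12e-07 to 2.88e-05), as were 28% of all genes. *Gtsf1* and *Mael* thus stood higher in females at E13.5, while at E16.5 *Gtsf1* was called higher in males and *Mael* moved by 0.52 ± 0.06 (adjusted p = 1.00e-04). The male minus female median over all genes was -0.28 at E13.5 and moved to 0.01 with median-of-ratios scaling, under which the *Gtsf1* difference no longer reached the size threshold. At E16.5 that scaling moved the median from 0.10 to 0.36, and *Tdrd5* and *Tdrd9* were then also called higher in males.

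**Figure D2:**
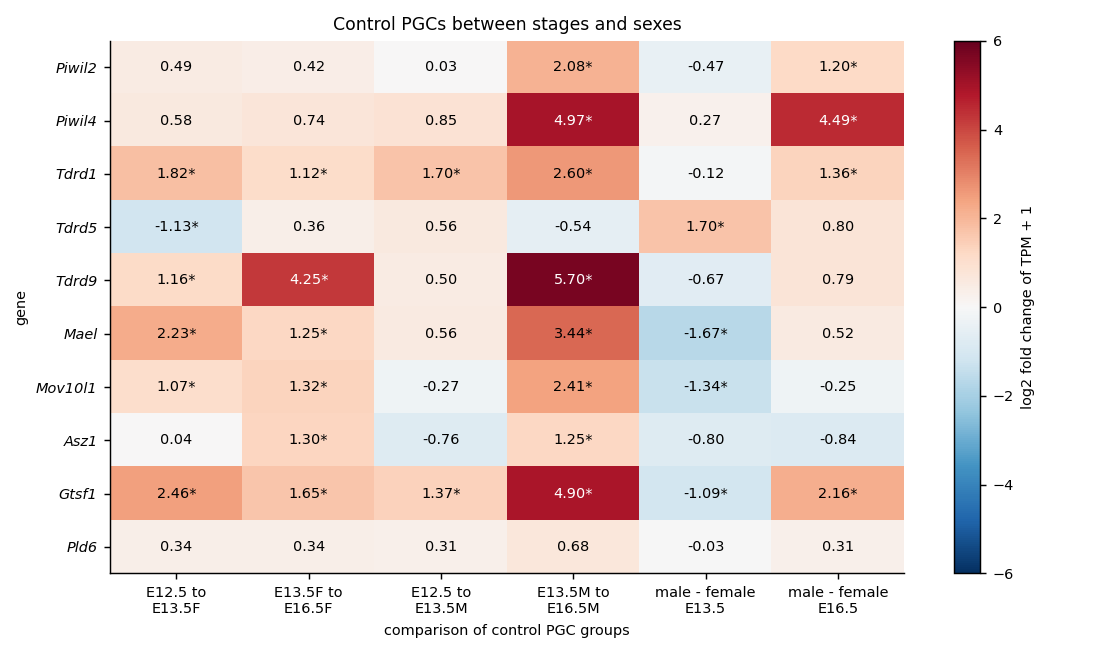
Log2 fold changes of TPM + 1 of the 10 genes (rows) in 6 comparisons of control PGC groups (columns), with a red to blue colour scale and an asterisk where the gene was called. The column from E13.5M to E16.5M holds 8 asterisks, with *Tdrd9* at 5.70, *Piwil4* at 4.97 and *Gtsf1* at 4.90.

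The differences between IUHG and control were clearest in E13.5M PGCs, where *Tdrd1*, *Gtsf1*, *Piwil4* and *Tdrd5* stood at 31.4% to 45.5% of control. All 10 genes had a lower mean, and in 8 of them all IUHG libraries lay below all control libraries, which held for 25.4% of all tested genes. Of the 10, these 4 were called lower, against 1.9% of all genes, and none higher. In simulated data, 98.5% of genes changed by 2 on the log2 scale were recovered here, against 55% at E13.5F and 67% at E16.5F. Counts of called genes are thus not directly comparable between these groups. The median log2 change was -0.85 over the 10 genes and -0.02 over all genes.

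*Tdrd1* stood at 13.0, 15.1 and 14.6 TPM in control and 4.51, 3.99 and 4.87 TPM in IUHG libraries. *Gtsf1* stood at 48.7, 43.8 and 42.7 TPM in control and 13.52, 17.3 and 16.6 TPM in IUHG libraries. In both genes IUHG libraries were tight and far below control, at 31.4% and 35.1% of the control mean. *Tdrd1* fell by 1.48 ± 0.11 and *Gtsf1* by 1.46 ± 0.10 on the log2 scale (limma, adjusted p = 1.35e-05 and 7.52e-06). *Tdrd5*, a gene of male germ granules, stood at 126, 134 and 136 TPM in control and 58.5, 60.2 and 61.7 TPM in IUHG libraries, a spread of under 12 TPM within either group. It fell by 1.12 ± 0.05 (adjusted p = 1.03e-06). *Piwil4* stood at 6.49, 7.58 and 8.53 TPM in control and 3.90, 1.89 and 2.69 TPM in IUHG libraries and fell by 1.18 ± 0.19 (adjusted p = 0.00135), a call that was lost with FPKM, without the filter on low genes and without IUHG replicate 2. Over the alternatives its change lay between -1.43 and -0.98 and its adjusted p between 7.39e-04 and 0.0217, the size being just missed with FPKM and without replicate 2.

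A further pair passed the p but not the size. *Mael* stood at 152, 169 and 169.9 TPM in control and 85.5, 84.3 and 92.3 TPM in IUHG libraries, with no overlap, a change of -0.90 ± 0.06 (adjusted p = 8.65e-06). *Tdrd9* stood at 1.85, 2.18 and 1.72 TPM in control and 0.840, 0.524 and 0.643 TPM in IUHG libraries, a change of -0.81 ± 0.16 (adjusted p = 0.00472) at levels where the scale compresses changes. *Piwil2* and *Asz1* were lower without overlap and had smaller changes of -0.37 ± 0.09 and -0.15 ± 0.06 (adjusted p = 0.0114 and 0.0728). *Mov10l1* and *Pld6* overlapped between groups, with 95% intervals of the log2 change from -0.21 to 0.07 and from -0.30 to 0.10. The precursor helicase and the mitochondrial pair were thus the genes with the smallest changes.

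Set beside E12.5 control PGCs, the E13.5M IUHG levels were near those of the earlier stage for several genes. *Tdrd1* ranged from 3.30 to 4.30 TPM in E12.5 control and from 3.99 to 4.87 TPM in E13.5M IUHG PGCs. *Gtsf1* ranged from 13.7 to 20.0 TPM and from 13.52 to 17.3 TPM, and *Piwil4* from 2.83 to 5.68 TPM and from 1.89 to 3.90 TPM. *Mael* and *Tdrd5* lay below the earlier stage, with *Mael* at 103 to 119 TPM in E12.5 control against 84.3 to 92.3 TPM, and *Tdrd5* at 83.1 to 92.5 TPM against 58.5 to 61.7 TPM. No test was made between these groups. Beside these changes, the sum of the 6 pan-germ markers was 8798 to 9467 TPM in control and 7787 to 8085 TPM in IUHG E13.5M PGCs, and that of the 4 Y-linked genes was 151 to 183 TPM and 116 to 119.6 TPM. Both marker sums were lower in IUHG without overlap. Of the somatic markers, the pregranulosa sum was 14.9 to 19.4 TPM in control and 9.10 to 10.4 TPM in IUHG and the interstitial sum 7.61 to 8.61 TPM in control and 2.67 to 4.22 TPM in IUHG, both lower without overlap, and the endothelial sum was higher without overlap, at 73.0 to 75.8 TPM in control and 99.4 to 108 TPM in IUHG. Of the 6 endothelial markers, only 2 had a mean of at least 1 TPM in each group, so the endothelial sum rests mainly on 2 genes. The Sertoli sums overlapped, at 82.8 to 92.8 TPM in control and 89.3 to 111 TPM in IUHG. The part of these marker sums in the result was not tested.

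In E13.5F PGCs, 1 of the 10 genes was called lower, *Mael*, against 0.436% of all genes, and 4 were lower without overlap, *Piwil4*, *Tdrd1*, *Mael* and *Gtsf1*, against 13.2%. The median log2 change was -0.41 over the 10 genes against 0.14 over all genes. FPKM or median-of-ratios scaling moved the median over all genes to under 0.01, while the median of the 10 was not recomputed with them. *Mael* stood at 538, 491 and 540.4 TPM in control and 259, 252 and 239 TPM in IUHG libraries. All 3 IUHG libraries lay near the same level, at 47.8% of the control mean. *Mael* fell by 1.06 ± 0.15 (limma, adjusted p = 0.00923). Its change stayed between -1.22 and -1.03 in all alternatives, but the call was lost with FPKM, with median-of-ratios scaling, without the filter and when any library but IUHG replicate 3 was left out (adjusted p up to 0.102).

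*Gtsf1* had a larger change but more spread. It stood at 91.9, 94.6 and 104 TPM in control and 34.0, 36.4 and 13.3 TPM in IUHG libraries, with IUHG replicate 3 the lowest, a change of -1.88 ± 0.34 (adjusted p = 0.0232). For 7 other genes, all but *Mael* and *Pld6*, replicate 3 was instead the highest IUHG library. *Tdrd1* stood at 15.5, 14.6 and 16.4 TPM in control and 4.85, 5.83 and 13.52 TPM in IUHG libraries, and *Piwil4* at 6.56, 5.28 and 6.43 TPM in control and 2.04, 2.31 and 4.80 TPM in IUHG libraries. *Piwil2* and *Tdrd5* crossed the control range in both directions, at 34.1, 49.2 and 100.3 TPM and 26.9, 46.2 and 94.5 TPM in IUHG libraries against 60.1, 44.3 and 61.9 TPM and 41.7, 34.9 and 44.1 TPM in control. Without IUHG replicate 3, 3 of the 10 genes were called lower, against 334 of 15834 genes in all, *Tdrd1* by 1.38 ± 0.21, *Mael* by 1.03 ± 0.11 and *Gtsf1* by 1.43 ± 0.14 (adjusted p = 0.00346, 5.24e-04 and 3.58e-04). *Piwil4*, *Tdrd9* and *Mov10l1* moved to -1.15, -0.68 and -0.63 from -0.86, -0.45 and -0.37, without a call, and *Piwil2* and *Tdrd5* changed sign to -0.41 and -0.18 (adjusted p = 0.214 and 0.63). The sum of the pan-germ markers was 4704 to 4990.4 TPM in control and 5628 to 6494 TPM in IUHG E13.5F PGCs, higher in IUHG without overlap. Of the somatic markers, the endothelial sum was higher without overlap (66.0 to 87.5 TPM in control and 102 to 218 TPM in IUHG) and the interstitial sum lower (11.0 to 16.9 TPM in control and 6.99 to 10.4 TPM in IUHG). Only 2 of the 6 endothelial markers had a mean of at least 1 TPM in each group. The part of these markers in the changes was not tested. The signs of *Piwil2* and *Pld6* also turned with FPKM and with median-of-ratios scaling, without a call.

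**Figure D3:**
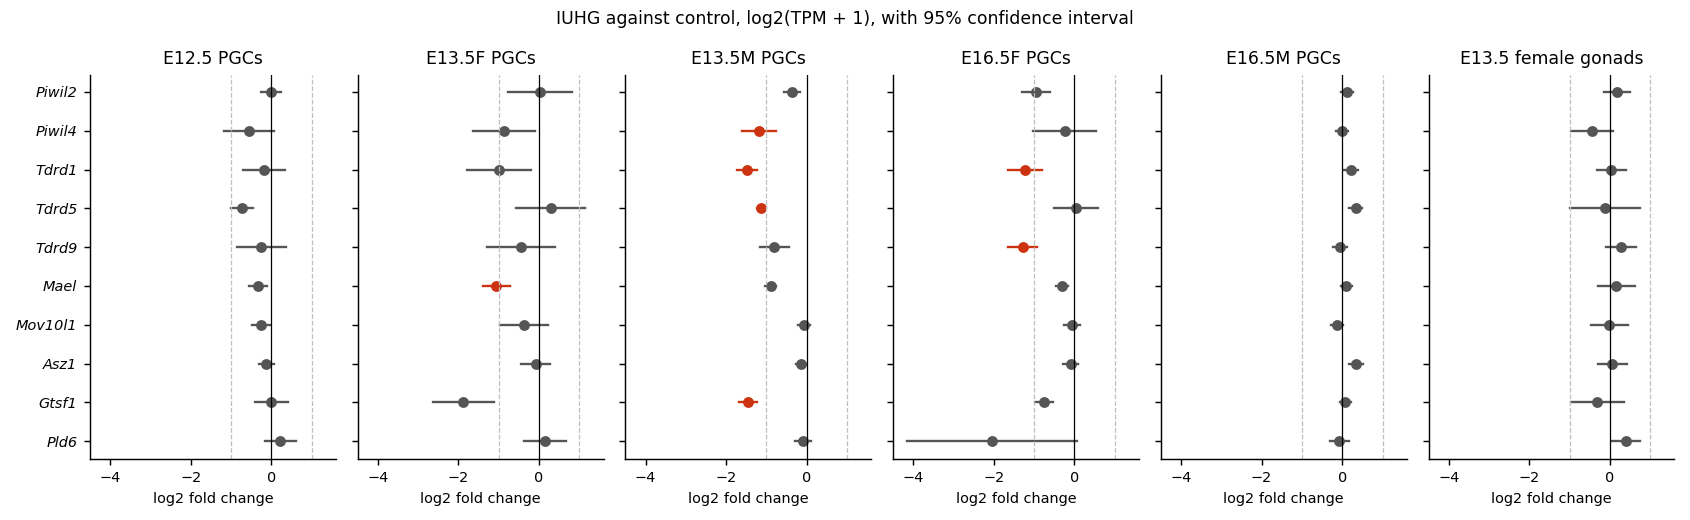
Log2 fold changes of TPM + 1, IUHG against control, for the 10 genes (rows) in 5 PGC comparisons and gonads (panels), as points with 95% confidence intervals, in red where called and with dashed lines at a change of 1. Called genes are 1 at E13.5F, 4 at E13.5M and 2 at E16.5F, all to the left of 0, and the wide interval of *Pld6* at E16.5F rests on 1 library listed at 0.

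In E16.5F PGCs, 2 of the 10 genes were called lower, *Tdrd9* and *Tdrd1*, against 0.534% of all genes, and 6 were lower without overlap, against 14.1%. The median log2 change was -0.54 against 0.04 over all genes. *Tdrd9*, the MIWI2-associated helicase, stood at 72.5, 89.1 and 101 TPM in control and 31.7, 39.6 and 34.0 TPM in IUHG libraries. *Tdrd1* stood at 30.6, 39.9 and 34.7 TPM in control and 16.2, 13.0 and 13.7 TPM in IUHG libraries. Both were at about the same share of control, 40.1% and 40.8%, and no IUHG library reached the control range. *Tdrd9* fell by 1.29 ± 0.16 and *Tdrd1* by 1.24 ± 0.19 (limma, adjusted p = 0.00392 and 0.00813). Leaving out single libraries raised the adjusted p to between 0.0056 and 0.0436 for *Tdrd9* and between 0.0116 and 0.0612 for *Tdrd1*, so that none of the 10 was called when any library but IUHG replicate 2 was left out, and the log2 changes stayed between -1.41 and -1.14.

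*Gtsf1* and *Piwil2* followed them closely at this stage. *Gtsf1* stood at 339, 299 and 280.5 TPM in control and 177, 174 and 188 TPM in IUHG libraries, a change of -0.76 ± 0.10 that passed the p but not the size (adjusted p = 0.00417). *Piwil2* stood at 72.6, 74.4 and 73.7 TPM in control and 31.7, 37.6 and 44.5 TPM in IUHG libraries, a change of -0.95 ± 0.15 (adjusted p = 0.0102). The PIWI gene was thus tight in control libraries, and all IUHG libraries lay far below them. *Mael* was lower without overlap at 1032, 942 and 1025 TPM against 1267, 1213 and 1245 TPM, a change of -0.31 ± 0.06 (adjusted p = 0.0243). *Pld6* was listed at 0 in IUHG replicate 1 and at 20.2 and 14.6 TPM in the others, against 25.8, 24.0 and 33.3 TPM in control, and since a 0 can be a failed estimate its fold is not read. Without that library the change of *Pld6* was -0.64 ± 0.23 (adjusted p = 0.139). *Mov10l1*, *Asz1*, *Tdrd5* and *Piwil4* overlapped between groups, with adjusted p from 0.504 to 0.932. Beside these changes, the 6 interstitial markers summed to 22.8 to 66.9 TPM in control and 87.2 to 122 TPM in IUHG E16.5F PGCs, without overlap and with none of the 6 at 0, while the pan-germ sum was 1797 to 2071 TPM and 1685 to 1961 TPM. The part of the interstitial markers in the result was not tested.

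In E16.5M PGCs, where control levels of most members were highest, none of the 10 genes was called in limma, against 0.201% of all genes, and 3 had an unadjusted p under 0.05, all higher in IUHG, against 5005 of 20921 genes with such a p in either direction. *Tdrd1*, *Tdrd5* and *Asz1* were higher without overlap, against 17.8% of all genes. *Mov10l1* was narrowly lower without overlap, at 239, 219 and 206 TPM in IUHG against 240.2, 240.1 and 241 TPM in control libraries (-0.12 ± 0.07, adjusted p = 0.289). The share of all genes lower without overlap is not given here. *Tdrd5* stood at 86.7, 92.1 and 92.2 TPM in control and 122, 114 and 108 TPM in IUHG libraries. *Asz1* stood at 341, 285 and 294 TPM in control and 368, 395 and 406 TPM in IUHG libraries. The IUHG libraries lay above control in both, with changes of 0.34 ± 0.07 and 0.35 ± 0.08 (adjusted p = 0.0302 and 0.0354). *Piwil4* stood at 285, 260.3 and 249 TPM in control and 275, 261 and 251 TPM in IUHG libraries, with a 95% interval of the log2 change from -0.17 to 0.14, and *Gtsf1* at 1488, 1301 and 1327 TPM in control and 1443, 1413 and 1491 TPM in IUHG libraries, with an interval from -0.05 to 0.21. Control and IUHG libraries overlapped in both genes, and a change of 1 on the log2 scale lay outside the interval of all 10 genes. The median log2 change was 0.09 against 0.04 over all genes. Beside these values, the Y-linked sum was 78.1 to 98.8 TPM in control and 116 to 123 TPM in IUHG and the interstitial sum 22.2 to 40.7 TPM in control and 42.2 to 45.1 TPM in IUHG, both higher without overlap, while the Sertoli sum was 129 to 133 TPM in control and 89.5 to 106 TPM in IUHG and the endothelial sum 257 to 276 TPM in control and 225 to 244 TPM in IUHG, both lower without overlap. Their part was not tested.

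In E12.5 PGCs, before most of the pathway had risen, none of the 10 genes was called in limma, against 0.247% of all genes, and 3 had an unadjusted p under 0.05, all lower in IUHG, against 2162 of 13756 genes in either direction. *Tdrd5*, *Mael*, *Mov10l1* and *Asz1* were lower without overlap, against 9.13% of all genes. *Tdrd5* stood at 92.5, 83.1 and 91.8 TPM in control and 61.7, 53.3 and 46.0 TPM in IUHG libraries, a change of -0.73 ± 0.12 (adjusted p = 0.0216), and *Mael* at 119, 103 and 111 TPM in control and 92.7, 80.4 and 89.8 TPM in IUHG libraries, a change of -0.33 ± 0.10 (adjusted p = 0.157). The median log2 change was -0.21 against 0.04 over all genes. Beside these values, the pan-germ sum was 7663 to 8319.8 TPM in control and 6785 to 7584 TPM in IUHG, the Y-linked sum was lower in IUHG as given above, the interstitial sum was 5.55 to 7.28 TPM in control and 0.660 to 1.37 TPM in IUHG and the pregranulosa sum 4.35 to 5.83 TPM in control and 1.36 to 4.10 TPM in IUHG, all lower without overlap, and the endothelial sum was 145 to 156 TPM in control and 179 to 187 TPM in IUHG, higher without overlap. Here too only 2 of the 6 endothelial markers had a mean of at least 1 TPM in each group. In control PGCs at E13.5, *Tdrd5* was higher in males, and *Mael* and *Mov10l1* were higher in females. The part of sex makeup and of these markers in the E12.5 values was not tested.

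In E13.5 female gonads, where germ cells are a minority and fewer germ cells cannot be told apart from less RNA per cell, none of the 10 genes was called in limma, against 0.622% of all genes. An unadjusted p under 0.05 was found for 1 of the 10, *Pld6*, against 3574 of 18005 genes in either direction. *Pld6* stood at 5.45, 5.25 and 5.49 TPM in control and 7.75, 8.88 and 5.80 TPM in IUHG libraries. It was the only one of the 10 higher without overlap, against 14.5% of all genes (adjusted p = 0.208). *Mael* stood at 64.1, 80.2 and 65.3 TPM in control and 106, 79.5 and 55.9 TPM in IUHG libraries and *Gtsf1* at 11.4, 8.44 and 7.17 TPM in control and 9.54, 8.88 and 3.85 TPM in IUHG libraries, so that the 2 genes with the largest log2 changes in E13.5F PGCs overlapped here, with 95% intervals of the log2 change from -0.29 to 0.62 and from -0.98 to 0.36. *Tdrd5* stood at 25.2, 8.36 and 7.34 TPM in control and 12.48, 10.9 and 8.76 TPM in IUHG libraries. Its highest value was in control replicate 1, the library with Y-linked and Sertoli transcripts, and without that library the change turned from -0.13 to 0.40 (adjusted p = 0.889 and 0.241). All 6 pan-germ markers were found in both groups, and the pan-germ sum was 461 to 552 TPM in control and 653 to 771 TPM in IUHG gonads, higher in IUHG without overlap, and the interstitial sum was 2433 to 2673 TPM and 1819 to 1954 TPM, lower without overlap, as was the sum of the blood markers (11508 to 14093 TPM in control and 9123 to 10479 TPM in IUHG). Their part in these values was not tested.

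The differences between these effects were tested as interactions. Between stages in male PGCs, 7 of the 10 genes differed (E16.5M minus E13.5M), against 8.33% of all genes, a test added after the values had been seen. The interaction was largest for *Tdrd1* (1.70 ± 0.12, adjusted p = 2.44e-06), *Gtsf1* (1.54 ± 0.12, adjusted p = 4.91e-06) and *Tdrd5* (1.46 ± 0.08, adjusted p = 3.62e-07). *Piwil4*, *Mael*, *Tdrd9* and *Asz1* followed at 1.17 ± 0.21, 1.00 ± 0.09, 0.75 ± 0.14 and 0.49 ± 0.10 (adjusted p from 1.22e-05 to 0.0047). The call of *Asz1* was lost in 13 of 18 alternatives, 8 of them without a single library (0.38 to 0.57, adjusted p up to 0.0192), those of *Piwil4* and *Tdrd9* in 2 each and that of *Tdrd5* in 1. In all 7 the change with IUHG was thus more positive at E16.5M than at E13.5M. With all PGC groups in one fit 3 of them were called, *Tdrd1*, *Mael* and *Gtsf1*.

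Between the sexes at E16.5, 4 of the 10 genes differed (E16.5M minus E16.5F), against 1.18% of all genes, in another test added after the values had been seen. *Tdrd1* differed by 1.45 ± 0.17, *Tdrd9* by 1.23 ± 0.17, *Piwil2* by 1.07 ± 0.15 and *Gtsf1* by 0.84 ± 0.11 (adjusted p = 9.18e-04, 0.00295, 0.00295 and 0.00136). These are the 4 genes with the largest female changes at that stage once *Pld6* is set aside, and with all PGC groups in one fit only *Tdrd1* was called. Leaving out single E16.5M libraries gave 2 or 3 called genes, with *Tdrd1* and *Gtsf1* among them each time.

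Between the sexes at E13.5 none of the 10 genes was called in limma (E13.5M minus E13.5F), against 3.22% of all genes. An unadjusted p under 0.05 was found for 1 of the 10, *Tdrd5*, against 4842 of 17365 genes in either direction. *Tdrd5* differed by -1.41 ± 0.44 (adjusted p = 0.0596), and was called with all PGC groups in one fit and without E13.5F IUHG replicate 1. The changes of *Mael* and *Gtsf1* at E13.5 were not shown to differ between the sexes, with intervals of the difference from -0.14 to 0.46 and from -0.44 to 1.27. Without E13.5F IUHG replicate 3 these differences were 0.13 ± 0.11 and -0.03 ± 0.16, the latter with a changed sign, and that of *Tdrd5* was -0.94 ± 0.23 (adjusted p = 0.419, 0.915 and 0.0132). Between stages in female PGCs 1 of the 10 genes was called, *Mael* (0.75 ± 0.14, adjusted p = 0.00783), against 1.93% of all genes. The call was lost with FPKM, median-of-ratios scaling and the replicate block and when any library but E13.5F IUHG replicate 3 was left out.

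**Figure D4:**
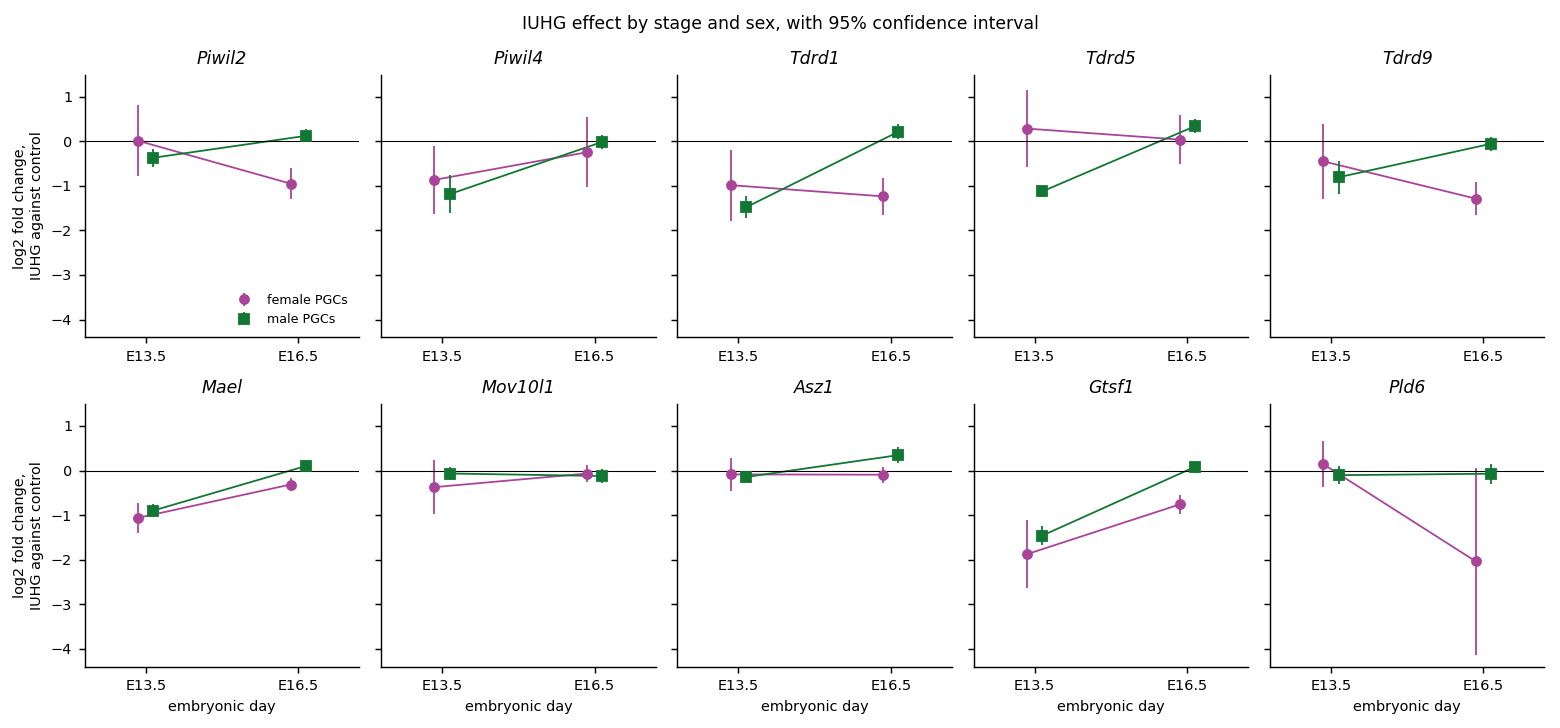
Log2 fold change of TPM + 1, IUHG against control, at E13.5 and E16.5 in female (purple circles) and male (green squares) PGCs for each gene, with 95% confidence intervals and a line joining the stages. Male lines of *Tdrd1*, *Tdrd5* and *Gtsf1* rise from below -1 at E13.5 to above 0 at E16.5, and female points of *Piwil2*, *Tdrd1* and *Tdrd9* lie near or below -1 at E16.5.

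A list of 21 other genes of the pathway gave the wider setting, of which 15 to 21 were high enough to be tested in a comparison. At E13.5M, 1 of 17 was called lower in IUHG, against 1.9% of all genes, and none higher. It was *Morc1*, an ATPase that represses transposons in male germ cells. *Morc1* stood at 22.6, 25.1 and 25.5 TPM in control and 8.65, 9.46 and 11.9 TPM in IUHG libraries, a fall of 1.22 ± 0.11 (limma, adjusted p = 6.11e-05). Of the 17, 11 were lower without overlap, against 25.4% of all genes, and their median log2 change was -0.24 against -0.02 over all genes. At E16.5F 3 of 17 were lower without overlap, against 14.1% of all genes. A further 8 were higher without overlap, a count for which the share of all genes is not given here. Their median log2 change at E16.5F was 0.16 over the 17 genes, against 0.04 over all genes and -0.54 over the 10. The median of the list was 0.05 at E12.5, -0.13 at E13.5F, 0.11 at E16.5M and 0.13 in gonads. In these other IUHG comparisons none of the list was called, while 4 to 9 of the tested genes had an unadjusted p under 0.05 in either direction. At E16.5M these were 9 of 21, all higher in IUHG, against 5005 of 20921 genes in either direction. Over all genes such a p was found for 2162 of 13756 at E12.5, 3871 of 16519 at E13.5F and 3574 of 18005 in gonads. *Henmt1*, which methylates the ends of piRNAs, stood at 27.4, 40.5 and 38.2 TPM in control and 9.66, 21.5 and 20.5 TPM in IUHG E16.5F PGCs (adjusted p = 0.0715), and is named for its likeness to the 10 genes given below.

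The interaction tests called 9 of 21 between stages in males, against 8.33% of all genes in either direction. All 9 were positive, *Morc1* (1.70 ± 0.14), *Exd1* (0.96 ± 0.14), *Pnldc1* (0.84 ± 0.12), which trims piRNA ends, *Dnmt3l* (0.72 ± 0.11), *Tdrd7* (0.66 ± 0.13), *Wdr77* (0.48 ± 0.09), *Spocd1* (0.47 ± 0.11), *Ddx4* (0.46 ± 0.08) and *Prmt5* (0.45 ± 0.09), with adjusted p of limma from 8.94e-06 to 0.00947. Of these, *Dnmt3l* and *Spocd1* lay below 1 TPM in all E13.5M libraries and were tested only through their E16.5M levels. At E13.5M *Spocd1* stood at 0.484, 0.370 and 0.414 TPM in control and was listed at 0 in all IUHG libraries. *Dnmt3l* stood there at 0.860, 0.851 and 0.672 TPM in control and 0.151, 0.169 and 0 TPM in IUHG libraries. The interactions of this pair thus rest on differences near the floor. Between the sexes at E13.5, 2 of 17 were called, against 3.22% of all genes, *Morc1* (-2.20 ± 0.32) and *Tdrd12* (-0.97 ± 0.18) (limma, adjusted p = 0.00117 and 0.00485). Between stages in females 1 of 17 was called, *Gpat2* (1.52 ± 0.26, adjusted p = 0.00366), against 1.93% of all genes. Between the sexes at E16.5 none of 21 was called, against 1.18% of all genes. There 5 of 21 had an unadjusted p under 0.05, against 4675 of 24019 genes.

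In control PGCs, 6 of 16 of the list rose and 3 fell from E12.5 to E13.5F, against 18.6% and 6.9% of all genes, led by *Tex15* (2.47 ± 0.17) and *Btbd18* (2.21 ± 0.18) and by *Tdrd12* (-1.35 ± 0.13) and *Morc1* (-1.32 ± 0.22). None of 17 was called from E12.5 to E13.5M, where 12 had an unadjusted p under 0.05 in limma, against 9473 of 14517 genes. From E13.5F to E16.5F 5 of 17 rose, against 18.4% of all genes, led by *Henmt1* (2.52 ± 0.23) and *Tex15* (1.85 ± 0.16), and none fell. From E13.5M to E16.5M 11 of 20 rose, against 38.3% of all genes, and 1, *Wdr77*, fell (-1.58 ± 0.07), against 2591 of 20409. The leading pair there were the methylation cofactor *Dnmt3l*, at 0.860, 0.851 and 0.672 TPM and then 693, 747 and 703 TPM, and *Spocd1*, which links MIWI2 to DNA methylation, at 272, 269 and 253 TPM in E16.5M and listed at 0 in all 3 E16.5F control libraries. Males were higher at E13.5 for *Morc1* (1.58 ± 0.20) and females for 8 of 17, against 9.35% and 20.4% of all genes, led by *Tex15* (-2.91 ± 0.17, male minus female) and *Btbd18* (-1.66 ± 0.18). At E16.5 males were higher for 8 of 20 and females for 4, against 28% and 5042 of 22037 genes, led by *Btbd18* (-1.78 ± 0.13) and *Mybl1* (-1.75 ± 0.23). *Tex15*, *Btbd18* and *Dnmt3l* are in lists that the study drew up from these libraries. The adjusted p of these named genes ranged from 6.41e-10 to 5.68e-04.

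Across the 30 PGC libraries, the 10 genes did not all follow one profile. Pearson's r of log2(TPM + 1) with the mean standardized profile of the other 9 was 0.96 for *Tdrd1*, 0.95 for *Gtsf1* and 0.95 for *Tdrd9*, 0.91, 0.90 and 0.90 for *Mael*, *Piwil4* and *Piwil2*, 0.81 for *Mov10l1*, 0.62 for *Asz1*, and 0.22 and 0.22 for *Tdrd5* and *Pld6*. The last pair thus followed the profile of the others least. Control *Pld6* still rose, from a mean of 17.1 TPM at E12.5 to 27.7 TPM at E16.5F and 34.3 TPM at E16.5M. Its r includes the E16.5F IUHG library in which it is listed at 0. Over the 45 pairs of genes r ranged from -0.14 to 0.96 (median 0.69). Among 8271 other genes with a mean of at least 10 TPM, the 5 most like the mean profile of the 10 were *Bnip2* (0.976), *Henmt1* (0.973), *Ddx25* (0.972), *Xrra1* (0.967) and *Fam178b* (0.962). Libraries of one group share stage and sex, so r is a description without a test.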

How the data were processed

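RNA-seq of 36 libraries was analysed, 6 of gonads and 30 of PGCs sorted for green fluorescence and amplified by Smart-seq2. Per the labels the notes of the submitters name mm39, FastQC, Trim Galore, STAR, featureCounts and DESeq2. For gonads, the authors aligned trimmed reads with HISAT2 and assembled transcripts with StringTie. The study's methods name mm9 there, but the gene starts of the 9 genes with a promoter lie 0 to 316 bases from starts in the GRCm38 promoter table. For PGCs, uniquely mapped STAR reads (mm39) were used. Each deposited table gave TPM per gene row, computed by the authors from their alignments, with FPKM beside it, and the few rows that share a gene ID were summed. The deposited coverage column of the same tables was used only to derive aligned bases, as the most frequent ratio of coverage to FPKM. These were 3.89 to 4.95 gigabases in gonads (median 4.545) and 3.25 to 8.32 gigabases in PGCs (median 5.535), and reads per gene are unknown, so no counting interval is given. Whether counting used strand is not given in the sources used here.

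Groups came from the labels. TPM was tested as log2(TPM + 1) for genes with a mean of at least 1 TPM in at least 1 of the compared groups. The test was limma 3.58.1 (R 4.3.3), with empirical Bayes moderation and Benjamini-Hochberg adjustment over all tested genes. Only the groups of a comparison entered its fit, and interactions used the 4 groups they join. Since whole read counts were not used here, no count model was run. Tables and figures were made with Python 3.11.15, numpy 2.4.6, pandas 2.3.3 and matplotlib 3.10.9. PGC calls needed an adjusted p under 0.01 and a log2 change over 1 in size, gonad calls an adjusted p under 0.05 and a change of at least 1, and interactions an adjusted p under 0.01. The fit was tested on simulated data, where 46.5% to 99% of 200 genes changed by 2 on the log2 scale were recovered per comparison, with 0 of the wrong sign and 0 to 5 unchanged genes called. For IUHG against control, recovery was 98.5% at E13.5M, 92.5% at E16.5M, 67% at E16.5F and 55% at E13.5F. It was lowest, at 46.5%, for the interaction between stages in females.

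The 10 genes, the list of 21 others and the marker lists were chosen with earlier results of these data known, and interactions between stages in males and between sexes at E16.5 were added after values had been seen. All 10 genes were named in every comparison. Of the 21, those called in an IUHG comparison were named, and in control comparisons the 2 with the largest called rise and the 2 with the largest called fall. The 5 genes most like the 10 were named by Pearson's r. The 95% intervals are those of limma. Each result was recomputed with median-of-ratios scaling, from FPKM, with 0.1 as the pseudocount, without the filter, with a replicate block, with all PGC groups in one fit and without each library in turn.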

Additional observations from a re-analysis of the deposited data

Results flagged for a closer look

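The change with IUHG differed between stages or sexes in tests of the difference itself. Between E13.5F and E16.5F it differed for *Mael* by 0.75 on the log2 scale, a call lost under most alternatives. Between E13.5M and E16.5M it differed for *Tdrd1* by 1.70, *Gtsf1* by 1.54, *Tdrd5* by 1.46, *Piwil4* by 1.17, *Mael* by 1.00, *Tdrd9* by 0.75 and *Asz1* by 0.49, all more positive at E16.5M, though the call of *Asz1* was lost in 13 of 18 alternatives. Between the sexes at E16.5 it differed for *Tdrd1* by 1.45, *Tdrd9* by 1.23, *Piwil2* by 1.07 and *Gtsf1* by 0.84, all more positive in males.

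In other pairs of groups every IUHG library lay on one side of control in one group and on the opposite side in the other, and these differences were not tested. The difference for *Tdrd1* between IUHG and control was -0.98 at E13.5F (-1.38 without IUHG replicate 3) and 0.22 at E16.5M. For *Tdrd5* it was -0.73 at E12.5 and 0.34 at E16.5M, and for *Asz1* -0.12 at E12.5 and 0.35 at E16.5M. For *Pld6* it was 0.39 in E13.5 female gonads. At E16.5F the fitted value of -2.04 rests on IUHG replicate 1, which is listed at 0, and is not read as a fold, and without that library it was -0.64. None of these 8 values was called in the main limma fits. With all PGC groups in one fit *Pld6* was called lower at E16.5F, with the library listed at 0 included.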

How the results depend on the processing

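Of 16 counts of called genes among the 10, one per comparison with both directions together, 10 stayed within 1.5 times under every alternative run, among them those at E12.5, E13.5M and E16.5M, in gonads and in control PGCs. Of 2149 recomputed changes of single genes, 1984 kept their direction and their side of the threshold, 86 lost and 16 gained a call, 63 without a call changed sign, and 0 called changes reversed. At E13.5F 0 genes were called with FPKM, without the filter and with median-of-ratios scaling, and 2 (*Mael* and *Gtsf1*) with the replicate block and with all PGC groups in one fit. At E16.5F 1 gene (*Tdrd9*) was called with a pseudocount of 0.1 and with the replicate block, and 0 without the filter. With all PGC groups in one fit 3 were called there (*Tdrd1*, *Tdrd9* and *Pld6*). Between sexes at E13.5, 1 gene (*Tdrd5*) was called with all PGC groups in one fit. Between stages in females 0 genes were called with FPKM, median-of-ratios scaling and the replicate block, and 2 (*Mael* and *Gtsf1*) with all PGC groups in one fit, which gave 3 between stages in males and 1 between sexes at E16.5. Leaving out single libraries gave 0 to 3 genes at E13.5F, 0 to 1 at E16.5F, 0 to 1 between sexes at E13.5, 0 to 1 between stages in females and 2 to 4 between sexes at E16.5. Without the filter more genes were tested, and without a library fewer samples were fitted, while the cause of the other changes was not tested. The replicate numbers did not pair the libraries: over 12 comparisons the deviations of same-numbered libraries correlated at -0.08 to 0.12, 0 comparisons had every pair over 0.1, and in 0 did every library correlate best with its own number. Apart from the counts given for the block, it left every count within 1.5 times. Reads per gene are unknown, which limits what can be said of *Tdrd9* and *Piwil4* at low TPM.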
